A study of Mus musculus with 7 samples.

Results

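Brain capillaries are lined by endothelial cells and wrapped by mural cells, which are the pericytes of capillaries and the smooth muscle cells of larger vessels. This account follows 37 genes that mark these vascular cells, in RNA of microglia sorted from mouse brain, and gives the level of each on every array. The genes were picked by symbol, 29 for endothelial and 8 for mural cells. The probe annotation named 35 of them (27 endothelial, 8 mural) among 19505 named genes, and Egfl7 and Ly6a were not analysed here. A gene with more than 1 probe set was represented by its brightest one on average. Several members, among them Bsg, Slc7a5, Slc16a1, Epas1 and Anpep, are also known from other cell types.

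There were 7 samples with 1 expression array each. All mice were of the C57BL/6 strain and carried the 5xFAD transgenes, which lead to amyloid plaques. B2m was intact (5xFAD;B2m+/+) in 3 samples, called wildtype, and disrupted (5xFAD;B2m-/-) in 4, called knockout. B2m is the light chain of MHC class I. Microglia, the resident macrophages of the brain, were sorted as live cells with CD45 and CD11b on the surface, and the labels name no vascular marker in the gate. The labels give no age, sex, litter or batch, name no mice without the 5xFAD transgenes, and do not say whether arrays came from separate animals, so that p-values measure only the spread between these samples, which may be technical. Replicate numbers were assigned here in the order of the samples within each genotype and are not part of the labels. Values are log2 expression, and differences are knockout minus wildtype.

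Endothelial cells of the brain differ from those of other organs in forming the blood-brain barrier. They are sealed by tight junctions, carry efflux pumps that return drugs and toxins to the blood, and carry transporters that bring nutrients and hormones in. VEGF and angiopoietin receptors and ETS and SOX transcription factors are known to maintain their identity, while pericytes depend on PDGF signalling from the endothelium.

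The genotype and the tissue were checked first. B2m (Entrez Gene 12010) was 13.39 to 13.42 on the wildtype arrays and 10.24 to 10.56 on the knockout arrays, a difference of -2.99 (SE 0.10). Of 16 genes that define microglia, 15 were measured. All 15 lay above the negative controls' 95th percentile, a rough guide to background, on all 7 arrays. Their mean level was 12.31 to 12.37 on wildtype and 12.34 to 12.43 on knockout arrays. Of the 35 vascular members, 9 lay above that percentile on all 7 arrays, 8 on some and 18 on none. A level among the negative controls is close to background, so no fold is given for a member below the percentile on any array.

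The vascular members differed most between the wildtype arrays themselves. Each array's deviation is its value minus the gene's mean over the 7 arrays. The mean deviation of the 27 endothelial members was 0.42 on wildtype replicate 1, 0.41 on wildtype replicate 2 and -0.18 on wildtype replicate 3. On knockout replicates 1 to 4 it was -0.079, -0.23, -0.12 and -0.22. Wildtype replicate 3 therefore lay among the knockout arrays, and wildtype replicates 1 and 2 stood above all others. The 8 mural members were likewise highest on wildtype replicates 1 and 2, with 0.23, 0.41 and -0.18 in wildtype and -0.0039, -0.17, -0.15 and -0.14 in knockout.

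**Figure D1:**
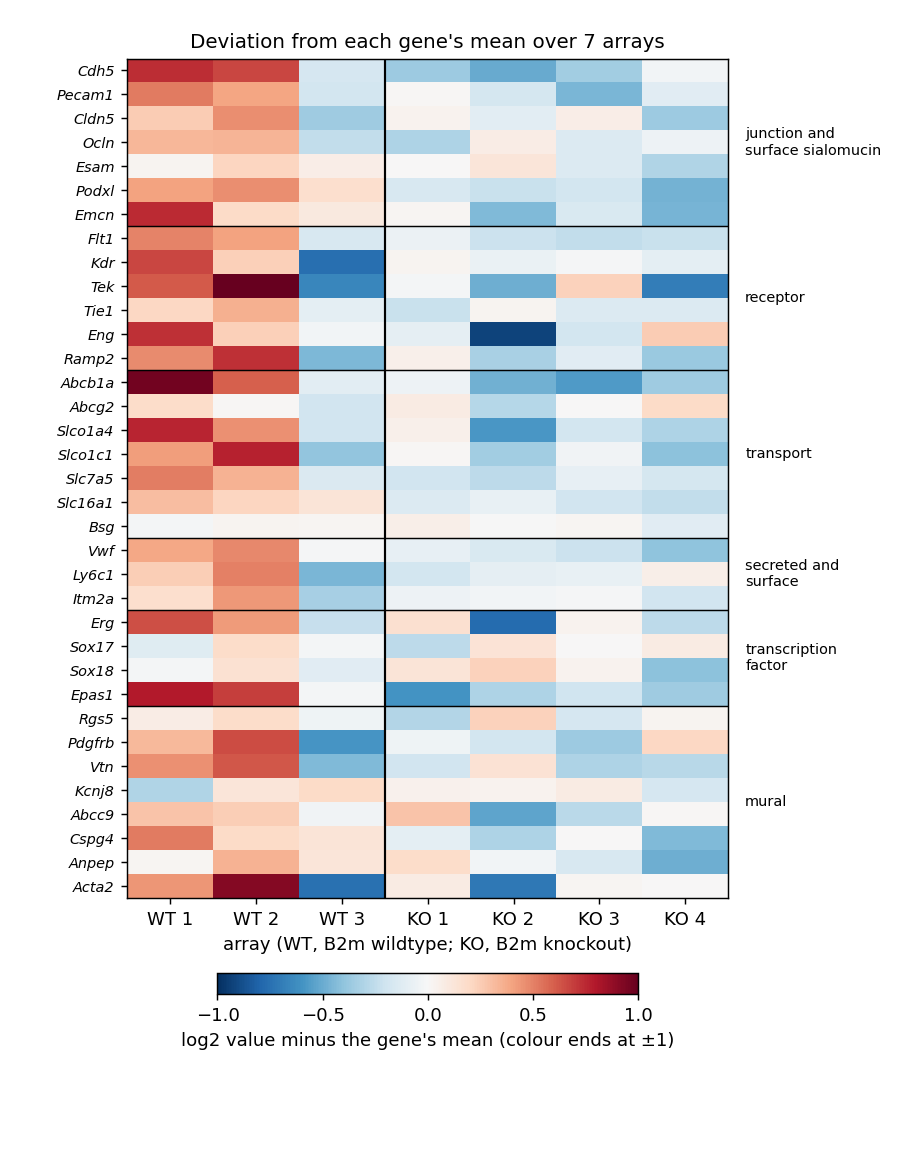
Deviation of each of the 35 measured members (rows, grouped by role) from its own mean over the 7 arrays (columns), in log2, with red above and blue below the mean. The columns of wildtype replicates 1 and 2 are red for most members, 24 and 27 of the 27 endothelial members being above their mean there, against 5 on wildtype replicate 3.

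Counted by gene, wildtype replicate 1 was the highest array for 14 of the 35 members and wildtype replicate 2 for 16. Wildtype replicate 3 was the lowest of the wildtype arrays for 30. In 25 members wildtype replicates 1 and 2 both lay above every knockout array. Among these, wildtype replicate 3 also lay above every knockout array for 6, within the knockout range for 12 and below every knockout array for 7. Over the 30 tested members this order of replicates 1 and 2 held for 24 (80%), against 8.59% of all tested genes. The 24 include Tek, Ramp2 and Slco1a4, which were tested partly because they were high on those replicates. The order was noticed in these data, so the counts describe it and test nothing. In RNA of a whole sort, fewer vascular cells and less RNA per vascular cell cannot be told apart.

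Most endothelial members moved together once genotype means were removed. Both genotypes were pooled for this, and no r was computed within the knockout arrays alone. After each genotype's mean was subtracted, the median Pearson r over 276 pairs of the 24 tested endothelial members was 0.66, and 92.4% of pairs were above 0. Over 144 pairs of an endothelial with a mural member it was 0.52, over 15 mural pairs 0.21, over 105 pairs of microglia genes 0.066, and over all pairs of tested genes 0.0042. Each r rests on the same 7 arrays, of which wildtype replicates 1 and 2 lay on one side for most members. The 24 endothelial members include Tek, Ramp2 and Slco1a4, which were tested partly because they were high on those replicates. These r values describe the same pattern of arrays and test nothing. On values without that subtraction, which include the genotype difference, Flt1, Slc7a5, Ramp2, Slco1a4 and Slco1c1 followed the mean deviation of the other endothelial members most closely, with r of 0.98, 0.97, 0.95, 0.94 and 0.94. Bsg (0.18), Sox18 (0.23) and Sox17 (-0.036) did so least among endothelial members, and Kcnj8 (-0.33) among mural members.

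Upstream sequence is shown for some members. Factors such as Erg, itself a member, are known to bind ETS sites in endothelial promoters. Whether such sites bear on the array values was not tested. RefSeq windows of assembly GRCm38.p6 were matched for 24 of the 37 members. The 250 bases before each start were searched on both strands for the ETS core AGGAAG. The same search was made for a core of SOX factors, AACAAT. It was also made for a core of GATA factors, AGATAA, and for the CArG box of smooth muscle genes. The lines below give the 4 endothelial members and the 1 mural member, among those with a single window, whose array values were most like the other endothelial members, 5′ to 3′ on the gene's strand. Capitals mark AGGAAG or its reverse complement, and no match overlapped another motif in these windows. The windows are chr5:147726012-147726261 (minus strand) for Flt1, chr6:141856221-141856470 (minus) for Slco1a4, chr6:141524104-141524353 (plus) for Slco1c1, chr5:8566841-8567090 (plus) for Abcb1a and chr11:78498870-78499119 (plus) for Vtn.
Flt1: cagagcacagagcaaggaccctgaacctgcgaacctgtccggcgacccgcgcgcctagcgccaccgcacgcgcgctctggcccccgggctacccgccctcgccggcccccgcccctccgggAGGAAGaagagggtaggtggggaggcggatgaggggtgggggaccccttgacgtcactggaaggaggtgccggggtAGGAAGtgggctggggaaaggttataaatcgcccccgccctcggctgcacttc
Slco1a4: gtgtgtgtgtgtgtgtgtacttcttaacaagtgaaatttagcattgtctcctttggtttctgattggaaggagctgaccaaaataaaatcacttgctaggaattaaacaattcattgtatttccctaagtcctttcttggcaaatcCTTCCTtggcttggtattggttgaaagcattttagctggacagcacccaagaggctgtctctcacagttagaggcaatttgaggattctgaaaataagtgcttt
Slco1c1: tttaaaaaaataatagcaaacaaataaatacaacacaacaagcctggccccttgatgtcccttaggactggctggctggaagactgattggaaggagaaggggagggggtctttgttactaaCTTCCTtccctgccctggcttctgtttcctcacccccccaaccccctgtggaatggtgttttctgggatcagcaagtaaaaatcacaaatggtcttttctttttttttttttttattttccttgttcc
Abcb1a: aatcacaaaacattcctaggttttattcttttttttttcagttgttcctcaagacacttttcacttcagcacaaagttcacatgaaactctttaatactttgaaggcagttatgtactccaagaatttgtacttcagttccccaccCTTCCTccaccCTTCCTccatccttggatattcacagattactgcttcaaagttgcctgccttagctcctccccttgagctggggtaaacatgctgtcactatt
Vtn: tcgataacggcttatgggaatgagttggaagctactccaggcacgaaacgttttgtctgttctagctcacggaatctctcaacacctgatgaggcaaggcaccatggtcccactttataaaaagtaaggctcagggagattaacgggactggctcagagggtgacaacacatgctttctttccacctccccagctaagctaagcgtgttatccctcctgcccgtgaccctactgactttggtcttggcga
Flt1 and Abcb1a held 2 copies of AGGAAG each, Slco1a4 and Slco1c1 held 1, and Vtn held 0. Of 25 windows of endothelial members 15 held it (60%), and of 7 windows of mural members 0 did, against 29.5% of all 32851 windows. Some members have several windows. Counted by gene, 12 of 17 endothelial members had a window with it, a count not made for all genes. The windows that held it include those of Abcg2, which followed the other endothelial members weakly (r of 0.41), and of Egfl7, which was not analysed. AACAAT was found in 4 endothelial windows (16%) and 0 mural windows, against 9.42% of all windows. AGATAA was found in 2 endothelial windows (8%) and 1 mural window (14.3%), against 9.99%. The CArG box was found in 0 member windows, against 1.47%. These are matches of letters, and binding was not measured.

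The genotypes were compared over 10004 genes that lay above their array's median in at least 3 arrays, of which 30 were members. Of these 30, 22 lay above it on all 7 arrays and none passed on wildtype arrays alone. Tek passed only on wildtype replicates 1 and 2 and knockout replicate 3. Ramp2 and Slco1a4 passed only on wildtype replicates 1 and 2 and knockout replicate 1. These members thus entered the test partly through arrays where they were high, and Slco1a4 is among the lower members counted below. The means of all 35 measured members were lower in knockout, but the sign turned for Kcnj8, Sox17 and Sox18 after repeated quantile normalization and for these, Abcg2 and Bsg after array medians were subtracted. Of all tested genes 51.4% had a difference below 0. The median difference of the 27 measured endothelial members was -0.43 and that of the 8 mural members -0.29, against -0.028 over all named genes. None of the 30 passed in limma at an adjusted p under 0.05, where 0.05% of all tested genes passed, and the members' limma adjusted p ran from 0.232 to 0.995. At an unadjusted p under 0.05, 11 members (36.7%) had lower and 0 had higher knockout means, against 3.54% and 8.39% of all tested genes. The groups did not overlap for 5 tested members (16.7%), all lower in knockout, against 3.8% of tested genes in that direction and 7.1% in the other, and for Emcn among the members not tested.

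These counts turned on which wildtype arrays were used. Without wildtype replicate 3, 25 of 30 members were lower at an unadjusted p under 0.05 (4.12% of all tested genes) and 3 passed in limma (0.222% of all), namely Epas1 (-1.11, adjusted p = 0.0260), Cdh5 (-1.01, adjusted p = 0.0375) and Abcb1a (-1.14, adjusted p = 0.0419). Replicate 3 was already seen to be the lowest wildtype array for 30 of the 35 measured members. The counts and adjusted p-values without it therefore describe how much rests on that array and are no separate test. The 30 tested include Tek, Ramp2 and Slco1a4, which did not pass the filter without replicate 1 or without replicate 2. Without wildtype replicate 1, or without replicate 2, 7 of 27 members were lower at an unadjusted p under 0.05 (2.23% and 2.21% of all tested genes). Without both, which left 1 wildtype array assumed to vary like the knockout arrays, 0 of 26 passed (0.0205% of all), 1 was lower at the unadjusted level (0.82% of all) and 2 were higher (2.17% of all), and the endothelial median was -0.015. The member counted lower there was Podxl (-0.43), and the 2 higher were Kdr (0.72) and Ly6c1 (0.38).

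**Figure D2:**
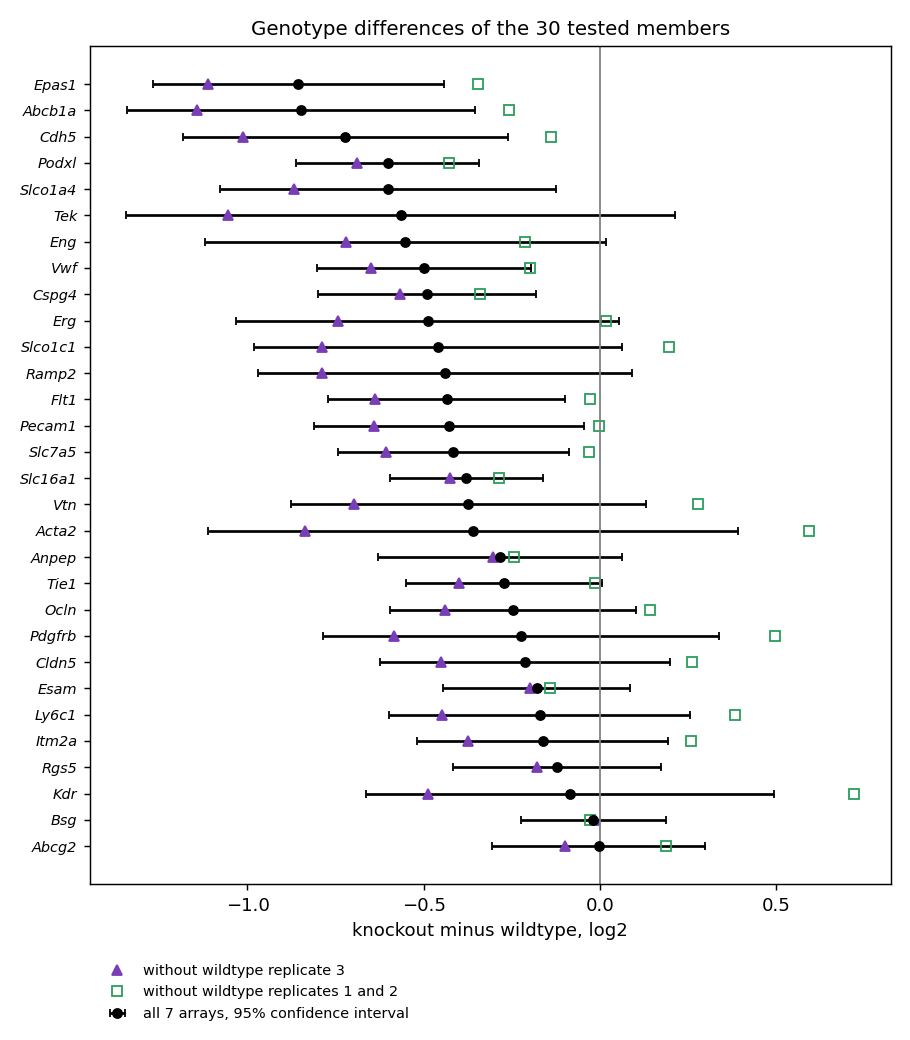
Differences of the 30 tested members (knockout minus wildtype, log2) with 95% confidence intervals from limma on all 7 arrays (black), and the same differences without wildtype replicate 3 (triangles) or without wildtype replicates 1 and 2 (squares). Most triangles lie left of the black points and most squares to the right, as for Cdh5 at -0.72, -1.01 and -0.14.

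Among the junction genes, Cdh5 (Entrez Gene 12562), the cadherin of endothelial adherens junctions, was 10.07, 9.998 and 9.16 on wildtype and 8.97, 8.83, 8.99 and 9.30 on knockout arrays. Wildtype replicate 3 lay below knockout replicate 4, so the groups overlapped. Only wildtype replicates 1 and 2 lay above the negative control percentile. The difference was -0.72 (SE 0.21, limma adjusted p = 0.315). Cldn5 (Entrez Gene 12741), the main claudin of the blood-brain barrier, was 12.38, 12.60 and 11.78 in wildtype and 12.17, 12.02, 12.20 and 11.77 in knockout. It lay above the negative control percentile on every array, and wildtype replicate 3 was nearly level with the lowest knockout array. Its difference was -0.21 (SE 0.19, limma adjusted p = 0.684), with a 95% confidence interval of -0.62 to 0.20.

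Podxl (Entrez Gene 27205), a sialomucin of the luminal surface, was 9.13, 9.19 and 8.90 in wildtype and 8.57, 8.51, 8.55 and 8.26 in knockout. It was 1 of the members whose 3 wildtype arrays all exceeded the 4 knockout arrays, at a difference of -0.60 (SE 0.12, limma adjusted p = 0.232), and all 7 values lay below the negative control percentile. Emcn, another endothelial sialomucin, was not tested, and had 7.92 to 8.58 in wildtype and 7.36 to 7.85 in knockout. Pecam1, the adhesion molecule CD31, differed by -0.43 (SE 0.17), Ocln, a second tight junction protein, by -0.25 (SE 0.16) and Esam, an adhesion molecule of endothelial junctions, by -0.18 (SE 0.12). For Pecam1 and Ocln wildtype replicates 1 and 2 were the highest arrays, while Esam varied little, from 8.72 to 8.91 in wildtype and 8.39 to 8.81 in knockout.

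The receptors showed the widest spread between wildtype arrays. Flt1 (Entrez Gene 14254), VEGF receptor 1, was 11.29, 11.19 and 10.63 in wildtype and 10.73, 10.58, 10.54 and 10.57 in knockout. Its knockout values were tight and wildtype replicate 3 fell inside them. The difference was -0.43 (SE 0.15, limma adjusted p = 0.348), a 1.35-fold higher wildtype mean with a 95% confidence interval of 1.07 to 1.71. Kdr (Entrez Gene 16542), VEGF receptor 2, was 11.08, 10.65 and 9.66 in wildtype and 10.44, 10.35, 10.40 and 10.31 in knockout. Here the knockout arrays lay between the wildtype arrays, with replicates 1 and 2 above and replicate 3 below all 4, and the difference was -0.085 (SE 0.26, limma adjusted p = 0.926). Tek, the angiopoietin receptor Tie2, was 8.42, 8.82 and 7.15 in wildtype and 7.11 to 8.04 in knockout, with a wildtype SD of 0.87 against 0.42. Its values lay below the negative control percentile on every array.

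Tie1, the relative of Tek, differed by -0.27 (SE 0.13) and Ramp2, a subunit of the adrenomedullin receptor, by -0.44 (SE 0.24). Eng, the TGF-beta co-receptor endoglin, was 10.77, 10.27 and 10.01 in wildtype and 9.95, 9.11, 9.85 and 10.29 in knockout, so that its lowest value was in knockout replicate 2. Endoglin is also known on macrophages. For the 6 receptors the median SD was 0.50 in wildtype and 0.15 in knockout. Over all 27 endothelial members these were 0.37 and 0.18, and over all tested genes 0.14 and 0.15.

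**Figure D3:**
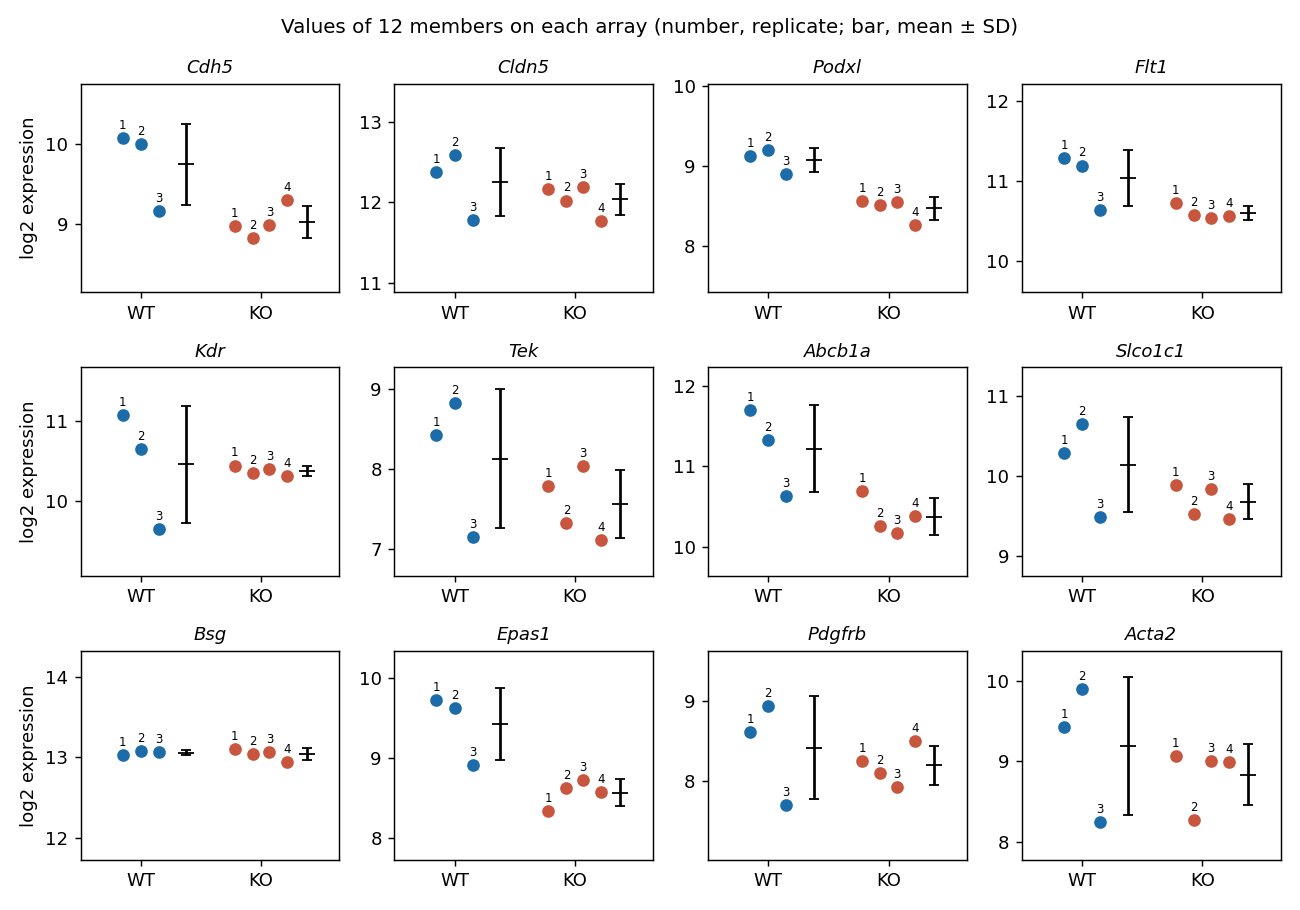
Log2 expression of 12 members on each array (blue, wildtype; red, knockout; the number is the replicate) with the group mean ± SD as black bars; every panel spans the same range. Wildtype replicate 3 is the lowest blue point in every panel but Bsg, and for Podxl and Epas1 it still lies above all red points.

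The transport members held both a large and a near-zero difference. Abcb1a (Entrez Gene 18671), the drug efflux pump P-glycoprotein, was 11.70, 11.33 and 10.63 in wildtype and 10.69, 10.25, 10.17 and 10.39 in knockout. Abcb1b is a close copy, and how far the probes tell them apart was not tested. Wildtype replicate 3 lay just below knockout replicate 1, and all values were above the negative control percentile. The difference was -0.85 (SE 0.22, limma adjusted p = 0.315), a 1.80-fold higher wildtype mean with a 95% confidence interval of 1.28 to 2.53. Abcg2, the other main efflux pump of the barrier, was 9.85 to 10.22 in wildtype and 9.76 to 10.23 in knockout, with a difference of -0.0032 (95% confidence interval -0.31 to 0.30). The 2 pumps thus had different values across the arrays, which was not tested as a difference between genes.

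The organic anion and thyroid hormone transporter Slco1c1 was 10.29, 10.64 and 9.48 in wildtype and 9.88, 9.53, 9.84 and 9.46 in knockout, and its relative Slco1a4 differed by -0.60 (SE 0.21). Slc7a5 (Entrez Gene 20539), the large neutral amino acid transporter, was 10.80, 10.63 and 10.14 in wildtype and 10.02 to 10.21 in knockout, a 1.33-fold higher wildtype mean (limma adjusted p = 0.348). Slc16a1 (Entrez Gene 20501), the lactate and ketone carrier MCT1, was 10.05, 9.96 and 9.87 in wildtype and 9.61, 9.67, 9.55 and 9.495 in knockout. Its wildtype arrays lay close together and all above the knockout arrays, at -0.38 (SE 0.097, limma adjusted p = 0.315). Bsg, the chaperone of this carrier and a protein of many cell types, was 13.03 to 13.08 in wildtype and 12.94 to 13.11 in knockout, and did not follow the other members.

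Among the secreted and surface members and the transcription factors, wildtype replicate 3 lay above all knockout arrays for Vwf and Epas1, within their range for Erg and below them all for Ly6c1 and Itm2a. Vwf, the clotting factor stored by endothelial cells, was 8.55, 8.64 and 8.14 in wildtype and 8.07, 8.01, 7.94 and 7.75 in knockout, without overlap, at -0.50 (SE 0.14, limma adjusted p = 0.315) and below the negative control percentile throughout. Ly6c1, a surface antigen of brain endothelium, was 11.11, 11.37 and 10.41 in wildtype and 10.68 to 10.92 in knockout. It has a close copy, Ly6c2, on monocytes, and how far the probes tell them apart was not tested. Itm2a, a membrane protein of barrier endothelium, differed by -0.16 (SE 0.16).

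Epas1 (Entrez Gene 13819), the hypoxia-inducible factor HIF-2 alpha, was 9.72, 9.62 and 8.91 in wildtype and 8.33, 8.62, 8.73 and 8.57 in knockout, with no overlap. All knockout values lay below the negative control percentile, and 2 wildtype values lay above it. The difference was -0.86 (SE 0.19, limma adjusted p = 0.264), and -0.35 without wildtype replicates 1 and 2. Erg, the ETS factor that maintains endothelial identity, was 8.91, 8.69 and 8.04 in wildtype and 8.43, 7.50, 8.31 and 8.004 in knockout. Each Erg value lay below the negative control percentile. Sox17 and Sox18, which act in arterial and early endothelium, were 6.604 to 6.91 and 7.47 to 7.73 in wildtype and 6.47 to 6.86 and 7.18 to 7.81 in knockout. These values were too low to be tested.

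Mural members were less uniform. Pdgfrb (Entrez Gene 18596), the PDGF receptor of pericytes, was 8.62, 8.94 and 7.70 in wildtype and 8.25, 8.11, 7.93 and 8.50 in knockout. Every Pdgfrb value lay below the negative control percentile. Wildtype replicate 3 was the lowest of all 7 arrays and the groups overlapped. Acta2, smooth muscle actin, had the same pattern with 9.43, 9.91 and 8.24 in wildtype, and 9.07, 8.27, 9.01 and 8.99 in knockout, where replicate 2 stood apart. Vtn, vitronectin, which brain pericytes secrete, was 10.37, 10.54 and 9.48 in wildtype and 9.61 to 10.06 in knockout, above the negative control percentile on all arrays. Its difference was -0.37 (SE 0.23, limma adjusted p = 0.541).

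Cspg4, the NG2 proteoglycan of pericytes and oligodendrocyte precursors, was 9.97, 9.64 and 9.57 in wildtype and 9.35, 9.14, 9.45 and 9.01 in knockout, without overlap, at -0.49 (SE 0.14, limma adjusted p = 0.315). Rgs5, a pericyte regulator of G protein signalling, differed by -0.12 (SE 0.13) and Anpep, the aminopeptidase CD13, by -0.28 (SE 0.16). Kcnj8 and Abcc9, the subunits of the pericyte ATP-sensitive potassium channel, were not tested. Kcnj8 was 7.56 to 8.06 in wildtype and 7.70 to 7.95 in knockout, and Abcc9 was 7.12 to 7.44 and 6.62 to 7.44, all below the negative control percentile.

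The median deviation of endothelial genes outside the 37 was also highest on wildtype replicates 1 and 2. Of 61 other endothelial genes, 59 were measured and 42 tested, and 0 passed in limma, with 10 lower and 1 higher at the unadjusted level, against 3.54% and 8.39% of all tested genes. Of the 59 measured, 46 had a difference below 0, and 37 lay below the negative control percentile on every array. The median deviation of the 59 was 0.15, 0.21 and -0.15 on the wildtype arrays and -0.13 to -0.06 on the knockout arrays. Adgrl4, an adhesion receptor of endothelium, was 10.53, 10.48 and 9.55 in wildtype and 9.03 to 9.66 in knockout. In 3 of the 42 tested genes the groups did not overlap, all lower in knockout, against 3.8% of all tested genes. Ptprg and Hey1 were among these, and lay below the negative control percentile on every array. For Ptprg wildtype replicate 3 was 8.40, against 8.34 on the highest knockout array. For Hey1 wildtype replicate 3 was 8.46, against 8.44 on the highest knockout array. Of 12 basement membrane genes 10 were tested, with 0 passing in limma and 2 lower at the unadjusted level (3.54% of all tested genes). Of the 12, 9 lay below the negative control percentile on every array. Sparcl1, a matrix protein known from endothelium and astrocytes, was 11.33, 11.25 and 10.19 in wildtype and 9.95 to 10.19 in knockout. Of 22 other mural genes 6 were tested, with 0 passing in limma and 3 lower, beside the same 3.54%. The median deviation of the 18 measured was 0.056, 0.28 and 0.090 on the wildtype arrays and -0.17 to -0.046 on the knockout arrays. In this list wildtype replicate 3 lay above wildtype replicate 1. Of the 18 genes 17 lay below the negative control percentile on every array. Of 12 perivascular fibroblast genes 11 were measured and 6 tested, with 0 passing and 0 counted at that level. The median deviation of the 11 was 0.098, 0.12 and 0.032 on the wildtype arrays and -0.19 to 0.030 on the knockout arrays. Wildtype replicates 1 and 2 were thus highest for the fibroblast genes, as for the other endothelial genes. Of these 11 genes 10 lay below the negative control percentile on every array.

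The 10 tested genes outside the members whose values over the 7 arrays were most like the mean deviation of the endothelial members were Jcad, Sptbn1, Sparcl1, Apcdd1, Foxo1, Slc9a3r2, Adgrf5, Spock2, Zfp638 and Fmo1. Their Pearson r ran from 0.97 to 0.99 over 7 arrays. For each of them wildtype replicates 1 and 2 lay above the other 5 arrays, as for Jcad at 9.57 and 9.76 against 8.72 to 8.97, so that r rests largely on those 2 arrays.

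Lists for glia, neurons, blood cells and border-associated macrophages were not highest on both of these arrays. The mean level of 10 astrocyte genes was 7.55 to 7.74 in wildtype and 7.33 to 7.74 in knockout, and all 10 lay below the negative control percentile on every array. The 9 measured oligodendrocyte genes (7.66 to 7.79 and 7.63 to 7.89) also lay below it throughout, as did 9 of 10 neuronal genes (mean of the 10, 7.59 to 7.71 and 7.52 to 7.71) and all 10 measured T and natural killer cell genes (7.16 to 7.30 and 6.92 to 7.37). The 3 measured erythroid genes had a mean of 7.77 to 7.96 and 7.60 to 8.06, and 2 of them lay below it throughout. Border-associated macrophage genes, from macrophages that lie along vessels and in the meninges, had a mean of 8.88 to 9.34 in wildtype and 8.89 to 9.04 in knockout, highest in wildtype replicate 3.

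Monocyte and neutrophil genes varied in another way. The median deviation of the 8 measured was -0.69, 0.11 and -0.78 on the wildtype arrays and -0.51, 0.041, 0.56 and 1.23 on the knockout arrays. Wildtype replicates 1 and 2, which were alike in endothelial members, differed here, and knockout replicate 4 was highest. Of the 8, 0 had a difference below 0, and their median difference was 0.77. Of the 7 tested, 0 passed in limma. At an unadjusted p under 0.05, 2 were higher and 0 lower in knockout, against 8.39% and 3.54% of all tested genes. The mean level of these genes was 8.97 to 9.75 in wildtype and 9.18 to 10.94 in knockout. Their part in the differences of vascular members was not tested.

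**Figure D4:**
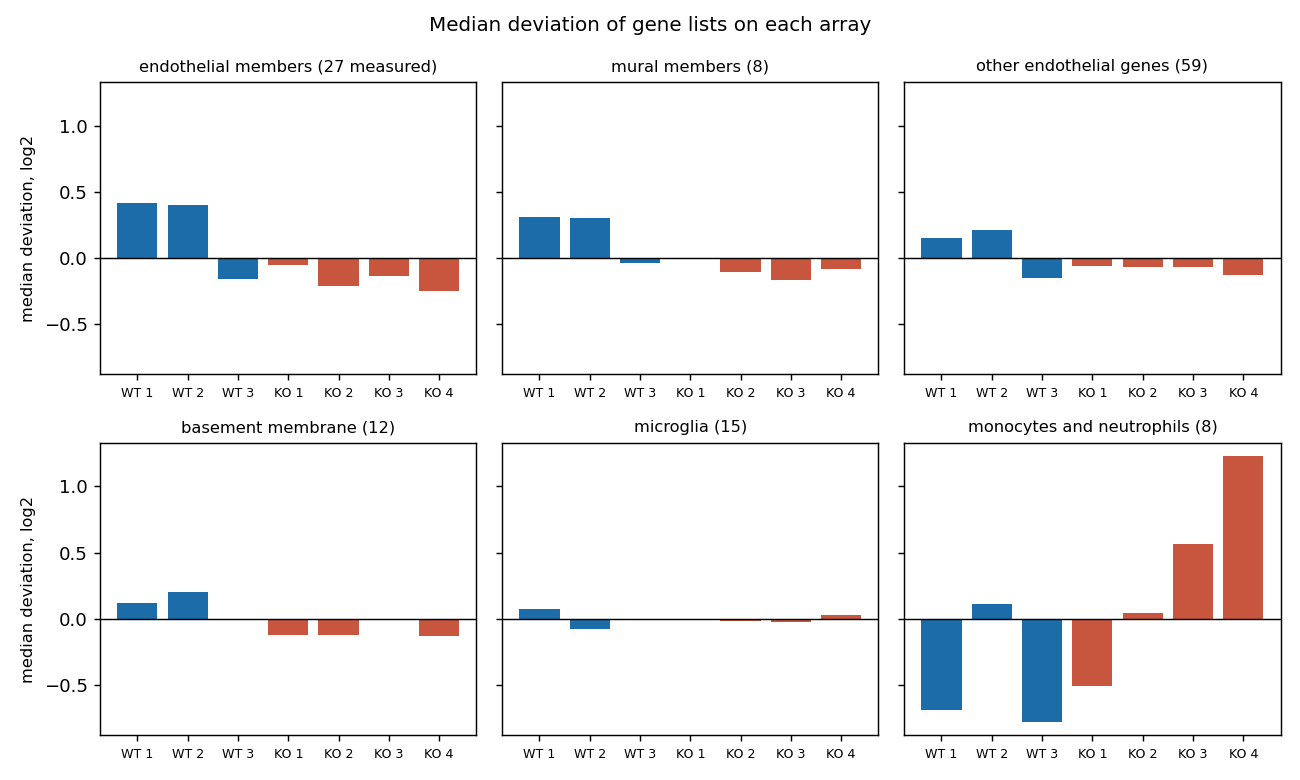
Median deviation from each gene's mean over the 7 arrays (log2) of 6 gene lists, with wildtype arrays in blue and knockout arrays in red. The endothelial, mural and other endothelial lists stand highest on wildtype replicates 1 and 2, microglia genes stay between -0.081 and 0.075, and monocyte and neutrophil genes run from -0.78 to 1.23.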

How the data were processed

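The authors deposited log2 expression per probe set, which the submitters' processing notes credit to RMA and Affymetrix Expression Console 1.1. RMA includes normalization between arrays, so a shift shared by most genes of an array would be removed. The genome build of the array is not given in the sources used here. Of 28846 rows, 19572 had 1 gene symbol, 0 had several and 9274 had none listed. Entrez identifiers matched each of the 19572 to a RefSeq gene table (GRCm38.p6), giving 19505 genes, 55 of them with several probe sets. The 5222 rows tagged as negative controls gave the background guide, whose 95th percentile was 9.35 to 9.55 per array.

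Genotypes were compared with lmFit and eBayes of limma 3.58.1 (R 4.3.3), with Benjamini-Hochberg adjustment over 10004 genes above the array median in at least 3 of 7 arrays. The fit was tested on simulated data with independent noise for each gene. That simulation does not cover genes that vary together across arrays, as the members did. The number of arrays limits the precision. Any member could be named, and from each other list up to 3 genes of smallest unadjusted p and the 10 genes most like the endothelial members. The members, gene lists and tests were chosen with earlier results of these data known. The 17 alternatives covered filters, variance models, array weights, scaling, probe sets and arrays left out.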

Additional observations from a re-analysis of the deposited data

Results flagged for a closer look

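In the knockout group of 4 arrays, a value was singled out when its gap to the nearest array, as a share of the group's range, exceeded Dixon's 95% critical value. Of 55 genes and lists examined, 2 did so, where chance gives about 1 in 20. Acta2 was 8.27 in knockout replicate 2, against 8.99 to 9.07 in the other 3. The mean level of border-associated macrophage genes was 8.89 in knockout replicate 2, against 9.02 to 9.04.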

How the results depend on the processing

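No paired analysis was possible because the labels carry no replicate numbers that link samples. The count of members passing in limma was 0 in 16 of 17 alternatives, and 0 to 3 when 1 array was left out. The count lower at an unadjusted p under 0.05 was 7 with the stricter filter, which tested 16 members, 7 to 25 with 1 array left out, and 1 without wildtype replicates 1 and 2 together. The count higher was 0 with 1 array left out and 2 without both. The endothelial median was -0.015 without both, and -0.64 to -0.22 with 1 array left out. The mural median was -0.047 without both, and -0.48 to -0.12 with 1 array left out. With 1 array left out, differences that turned sign ran from -0.49 to 0.22 for Kdr, -0.099 to 0.091 for Abcg2, -0.041 to 0.016 for Bsg, -0.45 to 0.031 for Ly6c1, -0.37 to 0.0091 for Itm2a and -0.58 to 0.037 for Pdgfrb. Abcg2 was 0.0063 with array weights and 0.031 with array medians subtracted, where Bsg was 0.016. Without wildtype replicates 1 and 2 together, 26 members passed the filter, and those that turned to above 0 were Cldn5 0.26, Ocln 0.14, Kdr 0.72, Abcg2 0.19, Slco1c1 0.20, Ly6c1 0.38, Itm2a 0.26, Erg 0.019, Pdgfrb 0.50, Vtn 0.28 and Acta2 0.59. Of 482 member values under alternatives, 456 kept their sign and their side of the threshold, 23 turned sign and 3 newly passed. Why the wildtype arrays differ was not tested. Low signal limits 18 members, which lay below the negative control percentile on all arrays.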
